A study of Mus musculus with 6 samples.

Results

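Imprinted genes are expressed mainly from the copy inherited from 1 parent. A list of 38 of them was examined in the early mouse heart, and its members were found by the gene that the array annotation gives each transcript cluster, the array's unit for a gene. A cluster counted for a member where it was annotated to that gene alone, and 28 of the 38 were found in this way, each with 1 cluster, among 14996 clusters annotated to a single gene. Of the 10 others, *Snrpn* shared a cluster with *Snurf*, *Meg3* with *Dlk1*, and *Copg2* with *Tsga13* and *Klf14*. *Kcnq1ot1*, *Zim1*, *Peg10*, *Mest*, *Nnat*, *Zdbf2* and *Peg13* were named by no cluster of the annotation used here.

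RNA was measured in whole hearts at E9.5 on 6 Affymetrix Mouse Exon 1.0 ST arrays, whose probes are spread over the exons of a gene. The mutant group (*Mesp1 Cre/+*; *Hic2 FL/FL*) and the wildtype group (*Mesp1 +/+*; *Hic2 FL/FL*) had 3 arrays each, and each array held a pool of 4 to 6 hearts with the blood inside them. Both groups carry floxed *Hic2*, which encodes a transcriptional repressor, and Cre was made from *Mesp1* in the anterior mesoderm and its derivatives, part of the haematopoietic system included. The Cre cassette replaces the coding sequence of *Mesp1*, so that the mutants also have a single copy of *Mesp1*, a gene of chromosome 7, and hearts with Cre alone were not analysed here. The hearts came from embryos without a visible phenotype. The arrays do not part the maternal from the paternal copy of a gene, and the sources used here do not say which parent passed on Cre.

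Imprinted genes lie in domains, in each of which a stretch of DNA methylated in the germline of 1 parent sets which copies are used. At the distal end of chromosome 7, the maternal copy of *H19* and the paternal copy of *Igf2* are controlled by 1 such element, and the neighbouring domain, with *Cdkn1c* and *Phlda2*, is silenced on the paternal copy by the long RNA *Kcnq1ot1*. Many imprinted genes act on embryonic growth. Those expressed from the paternal copy, such as *Igf2*, tend to promote it, and several of those expressed from the maternal copy, such as *Igf2r*, *Cdkn1c* and *Grb10*, restrain it.

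The deposited values are log2 expression after RMA, a method that normalises the arrays to each other and summarises the probes of a gene. Clusters with a gene and a linear mean above 100 (6.64 on the log2 scale) in the higher genotype were compared with limma, an empirical Bayes linear model, with Benjamini-Hochberg adjustment over all 10439 such clusters. Differences are mutant minus wildtype on the log2 scale. Of the 28 imprinted genes found, 23 passed this filter, *Slc22a18* and *Mkrn3* through the wildtype alone. The 5 that did not pass in either genotype were *Ascl2*, *Magel2*, *Usp29*, *Rtl1* and *Dio3*.
*Hic2* itself was at 8.27, 8.23 and 8.37 in the mutant and 9.35, 9.36 and 8.91 in the wildtype, with no overlap (difference -0.92, limma adjusted p = 0.125). Its limma adjusted p depended on the setting. It passed after median centring (limma adjusted p = 0.0441), quantile normalisation (0.0390) and cyclic loess (0.0388). It did not pass with the replicate number as a block (limma adjusted p = 0.112), an intensity trend (0.130) or no intensity filter (0.228). With each array left out in turn, the limma adjusted p ran from 0.0249 to 0.586. It passed in 1 of these cases, without wildtype replicate 3. The array medians lay between 7.18 and 7.31, and all 12 heart muscle markers found passed the filter, with per-array medians of 13.07 to 13.11 in the mutant and 13.08 to 13.11 in the wildtype. The 20 erythroid markers found, genes of red cells, had per-array medians of 8.91, 8.77 and 9.47 in the mutant and 8.73, 8.16 and 7.79 in the wildtype. All 20 had a higher mean in the mutant, while 71.8% of all clusters tested had a lower one. In pooled whole hearts, fewer cells of a type and less RNA per cell cannot be told apart.

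In the wildtype heart, imprinted genes were among the brightest clusters of the array. Of 16015 clusters annotated to a gene, *H19* ranked 2 and *Igf2* ranked 14 by wildtype mean. Of the 28 imprinted genes, 21 lay above the median cluster (8.07), 14 above the 90% point (10.96), 12 above the 95% point (11.60) and 5 above the 99% point (12.70). The 5 at the top were *H19*, *Igf2*, *Cd81*, *Grb10* and *Igf2r*. Clusters use different probes, so these ranks describe array signal and are not amounts of RNA.
Below them came *Peg3* at 12.52, *Slc38a4* at 12.42, *Nap1l4* at 12.33, *Plagl1* at 12.28, *Cdkn1c* at 12.23, *Ndn* at 11.92 and *Airn* at 11.73 as wildtype means. The wildtype arrays of neighbours in this order overlapped, except between *Slc38a4* and *Nap1l4* and between *Cdkn1c* and *Ndn*. At the other end, *Dio3*, which encodes the deiodinase that inactivates thyroid hormone, had the lowest wildtype mean at 5.09, and the placental transcription factor *Ascl2* followed at 5.70.

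**Figure D1:**
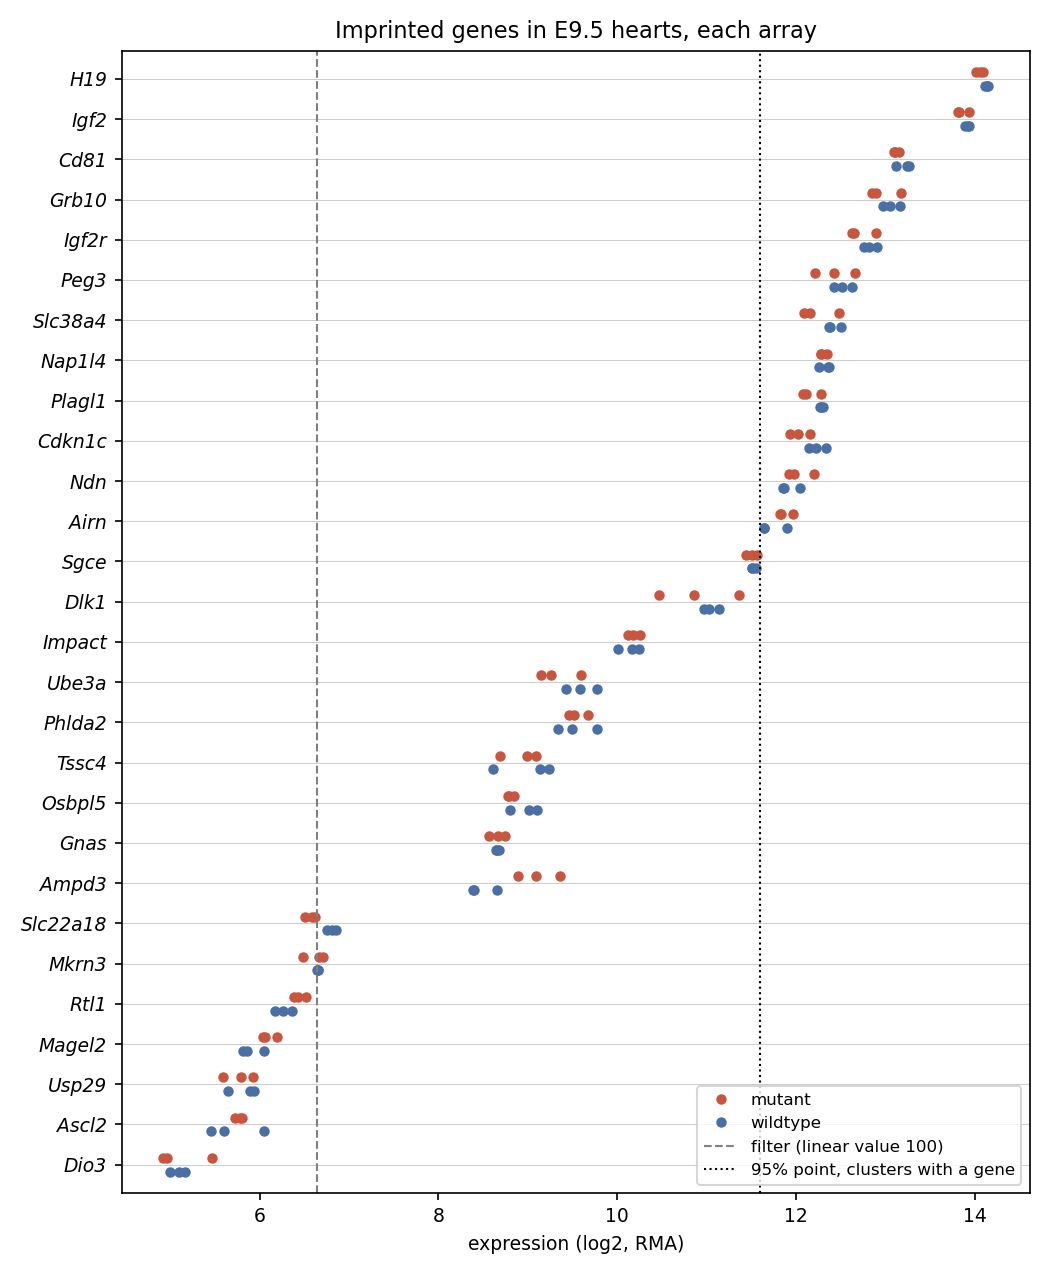
Log2 expression of the 28 imprinted genes found, with each of the 3 mutant arrays (red, upper row of each gene) and each of the 3 wildtype arrays (blue, lower row) as a point, ordered by wildtype mean. The dashed line is the filter and the dotted line the 95% point of all clusters with a gene; the points of both genotypes interleave for most genes, and *Ampd3* is the gene with the widest gap.

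Between the genotypes, the imprinted genes differed little. At an adjusted p under 0.05 by limma, 0 of the 23 tested were higher in the mutant and 0 were lower, where 0.0671% of all clusters tested were called higher (7 clusters) and 0% were called lower. At an unadjusted p under 0.05, 1 was higher (*Ampd3*) and 1 was lower (*Slc22a18*), against 1.68% of all clusters higher and 5.9% lower. These background counts, 175 higher and 616 lower, became 344 and 597 after quantile normalisation and 389 and 475 after cyclic loess, and 281 were higher with the replicate number as a block. The counts for the imprinted genes stayed at 1 and 1 under those 3 settings. The lower count was 0 without mutant replicate 1 or 2, where 2.98% and 2.24% of all clusters tested were lower. It was also 0 without wildtype replicate 1 or 2, where 1.72% and 1.82% were. The count was 5 without mutant replicate 3, where 16.7% of all clusters tested were lower, and 2 without wildtype replicate 3, where 18.2% were.

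The median difference of the 23 imprinted genes tested was -0.08, and that of all clusters tested was -0.09. Of the 23, 18 had a lower mean in the mutant, as had 71.8% of all clusters tested, both on the values as deposited. The number was 15 of 23 after quantile normalisation and 13 of 22 after cyclic loess. The median of all clusters tested also moved under these scalings, to -0.03 and -0.01, so the 71.8% is no background for those counts. The differences ran from -0.26 (*Ube3a*) to 0.63 (*Ampd3*). For 20 of the 23, the 95% interval of the difference lay within a 1.5-fold change either way, the exceptions being *Ampd3*, *Ube3a* and *Dlk1*. The interval reached 0.25 to either side for the median imprinted gene tested, against 0.28 over all clusters tested, and it was narrowest for *H19*, at 0.20, and widest for *Dlk1*, at 0.46. Mutant and wildtype arrays did not overlap in 1 imprinted gene tested that was higher in the mutant (*Ampd3*) and in 2 that were lower (*H19* and *Slc22a18*), against 2.82% and 9.59% of all clusters tested.

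**Figure D2:**
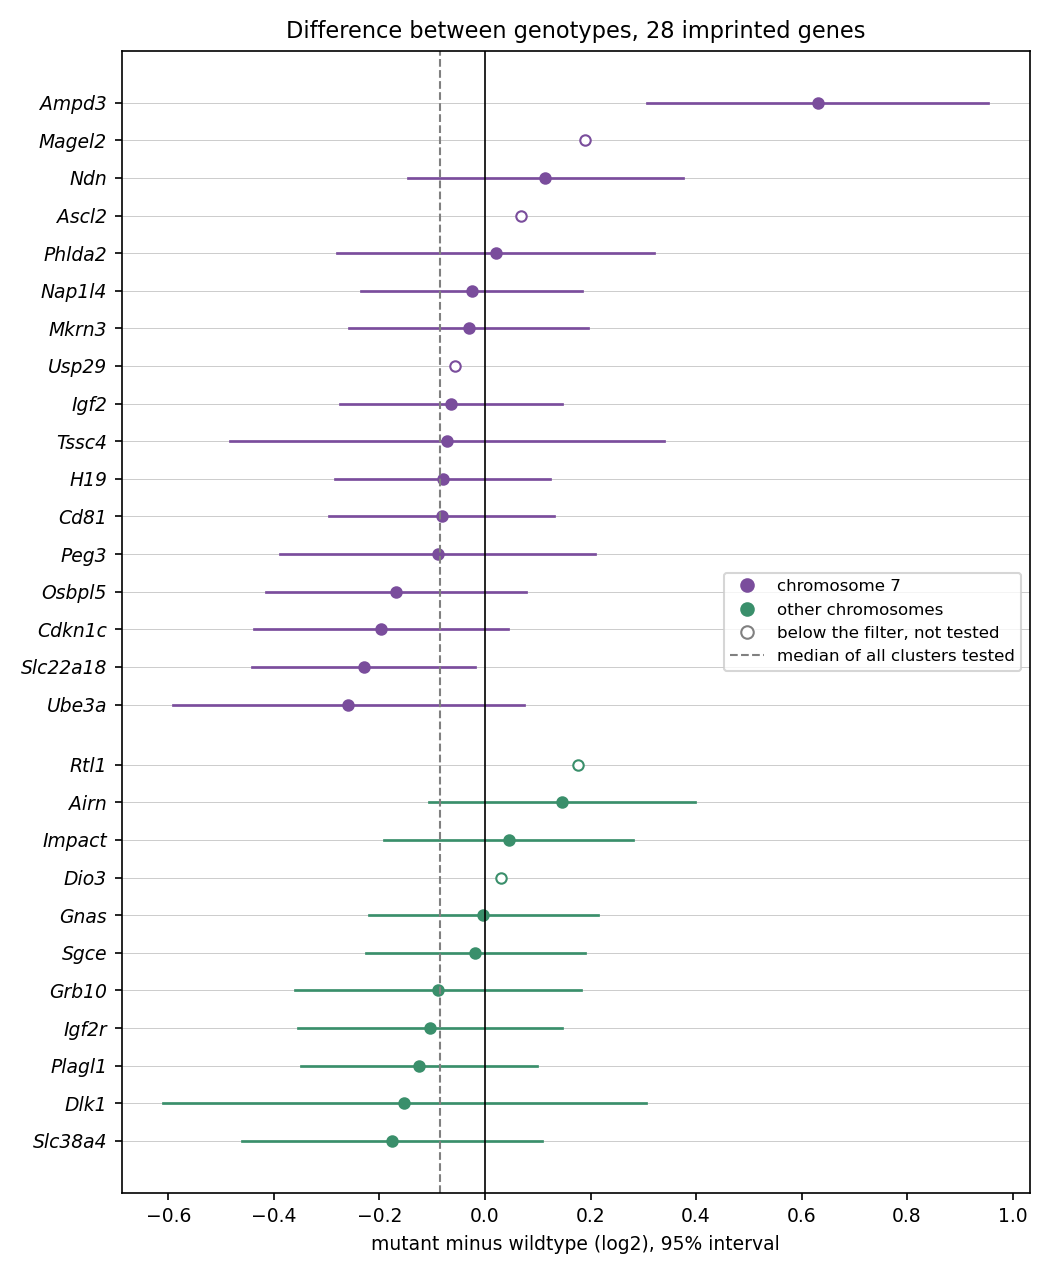
Mutant minus wildtype log2 difference of each of the 28 imprinted genes found, with the 95% interval from limma for those tested (n = 3 arrays per genotype), for chromosome 7 (purple, top) and other chromosomes (green, below). Open circles are genes below the filter, and the dashed line is the median of all clusters tested, at -0.09; the interval of *Ampd3* lies above 0 and that of *Slc22a18* below it, and those of the other tested genes cross 0.

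*H19*, a long RNA without a protein, read 14.06, 14.01 and 14.09 in the mutant and 14.13, 14.15 and 14.12 in the wildtype. Each mutant array was below each wildtype array, by little: the difference was -0.08 (95% interval -0.28 to 0.12, limma adjusted p = 0.744). The brightest cluster of any array was at 14.24 to 14.36, so that *H19* lay close to the upper end of the range. *Igf2*, a growth factor of the embryo and the best known partner of *H19*, read 13.82, 13.81 and 13.93 in the mutant and 13.94, 13.92 and 13.89 in the wildtype. The genotypes overlapped, with a difference of -0.06 (95% interval -0.27 to 0.15, limma adjusted p = 0.804). Both intervals lie within a 1.5-fold change either way on this scale, but differences between clusters this close to the upper end may be compressed, which was not tested.
Each of these genes also holds a microRNA, whose mature forms were not measured by the clusters used here. They are shown as the short RNAs made from the brightest members of the list, and no seed is shared among them. The sequences are from RefSeq (GRCm38.p6, minus strand), written 5′ to 3′ with the seed, bases 2 to 8, in capitals. Those of miR-675, within *H19*, are at chr7:142577112-142577133 (5p) and chr7:142577078-142577099 (3p), and those of miR-483, within *Igf2*, at chr7:142654968-142654989 (5p) and chr7:142654932-142654952 (3p).
mmu-miR-675-5p: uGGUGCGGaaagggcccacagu
mmu-miR-675-3p: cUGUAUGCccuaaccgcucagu
mmu-miR-483-5p: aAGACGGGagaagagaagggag
mmu-miR-483-3p: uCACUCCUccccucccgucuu

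The other imprinted regulators of growth were spread narrowly around the median of all clusters. *Cdkn1c*, which encodes the cell cycle inhibitor p57, was at 11.94, 12.02 and 12.15 in the mutant and 12.34, 12.14 and 12.22 in the wildtype, and the genotypes overlapped by the highest mutant array alone (difference -0.20, 95% interval -0.44 to 0.04, limma adjusted p = 0.606). *Igf2r*, the receptor that takes IGF2 up for degradation, was at 12.62, 12.65 and 12.89 in the mutant and 12.76, 12.81 and 12.91 in the wildtype (difference -0.10, limma adjusted p = 0.733). *Airn*, the paternal long RNA that silences *Igf2r* in cis and is transcribed from within it, was at 11.82, 11.96 and 11.83 in the mutant and 11.64, 11.64 and 11.90 in the wildtype (difference 0.15, limma adjusted p = 0.652). The differences of this pair have opposite signs, and both intervals include 0.
*Grb10*, an adaptor that dampens insulin and IGF signalling, had a difference of -0.09, *Plagl1*, a zinc finger transcription factor, -0.13, *Peg3*, another zinc finger protein, -0.09, and *Phlda2*, which limits placental growth, 0.02. *Dlk1*, a membrane protein related to Notch ligands, was the most variable of the group, at 10.86, 10.46 and 11.36 in the mutant and 10.97, 11.02 and 11.14 in the wildtype. Its mutant arrays lay on both sides of all wildtype arrays, and the sign of its difference of -0.15 turned without mutant replicate 2 (0.06). Of 9 growth regulators tested, 8 had a lower mean in the mutant, as had 71.8% of all clusters tested, and the median of the 9 was -0.09, the same as over all clusters. Under the other scalings the count stayed at 8, while the median was -0.07 with quantile normalisation, against -0.03 over all clusters, and -0.09 with cyclic loess, against -0.01. The count depended on single arrays. Without mutant replicate 2 it was 6 of 9, with a median of -0.04 against -0.06 over all clusters. Without mutant replicate 3 it was 9 of 9, with a median of -0.19 against -0.10.

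*Meg3*, the maternal long RNA of the *Dlk1* domain, had no cluster of its own. The cluster annotated jointly to *Meg3* and *Dlk1* was at 11.19, 11.44 and 10.86 in the mutant and 10.64, 10.82 and 10.42 in the wildtype. All mutant arrays were above all wildtype arrays (difference 0.54, 95% interval 0.16 to 0.92, unadjusted p = 0.0106, limma adjusted p = 0.606). The cluster annotated to *Dlk1* alone ordered the mutant arrays the other way, with replicate 3 highest and replicate 2 lowest. The sources used here do not say which of these genes the joint probes measured. The joint cluster of *Snrpn* and *Snurf* differed by 0.04, and that of *Copg2*, *Tsga13* and *Klf14* was below the filter, with means of 3.38 in the mutant and 3.40 in the wildtype.

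*Ampd3* had the largest difference among the imprinted genes found. It encodes the AMP deaminase known as the erythrocyte isoform, which turns AMP into IMP, and its imprinting, with expression from the maternal copy, was described in placenta. It read 9.10, 8.89 and 9.36 in the mutant and 8.66, 8.40 and 8.39 in the wildtype, with means of 9.11 ± 0.24 in the mutant and 8.48 ± 0.15 in the wildtype (SD, n = 3 each). The lowest mutant array was above the highest wildtype array. The difference was 0.63 (95% interval 0.31 to 0.95, standard error 0.142, unadjusted p = 0.00185), and the limma adjusted p of 0.370 did not pass (0.105 to 0.936 over the alternatives).
Within each genotype, the arrays had the same order for *Ampd3* as for the median of the 20 erythroid markers, with replicate 3, then 1, then 2 in the mutant and replicate 1, then 2, then 3 in the wildtype. Wildtype replicates 2 and 3 of *Ampd3* were almost level, at 8.396 and 8.392. The order is also a common one: over all clusters tested, wildtype replicate 1 was highest for 59.5% and replicate 3 lowest for 73.9%. In the mutant, replicate 3 was highest for 46.3% and replicate 2 lowest for 53.3%. With the erythroid median as a covariate, the difference of *Ampd3* was 0.28 (unadjusted p = 0.101, limma adjusted p = 0.30). That median was higher in every mutant array than in every wildtype array, so the covariate also takes up part of the genotype difference. With it, the median difference of all clusters tested was -0.21, against -0.09 without it. The erythroid markers had a median difference of 0.83, with 16 of 20 higher at an unadjusted p under 0.05 and 0 of 20 at an adjusted p under 0.05 by limma. Over all clusters tested these shares were 1.68% and 0.0671%. The part of red cells in the difference of *Ampd3* was not tested, since the covariate does not separate it from genotype.

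**Figure D3:**
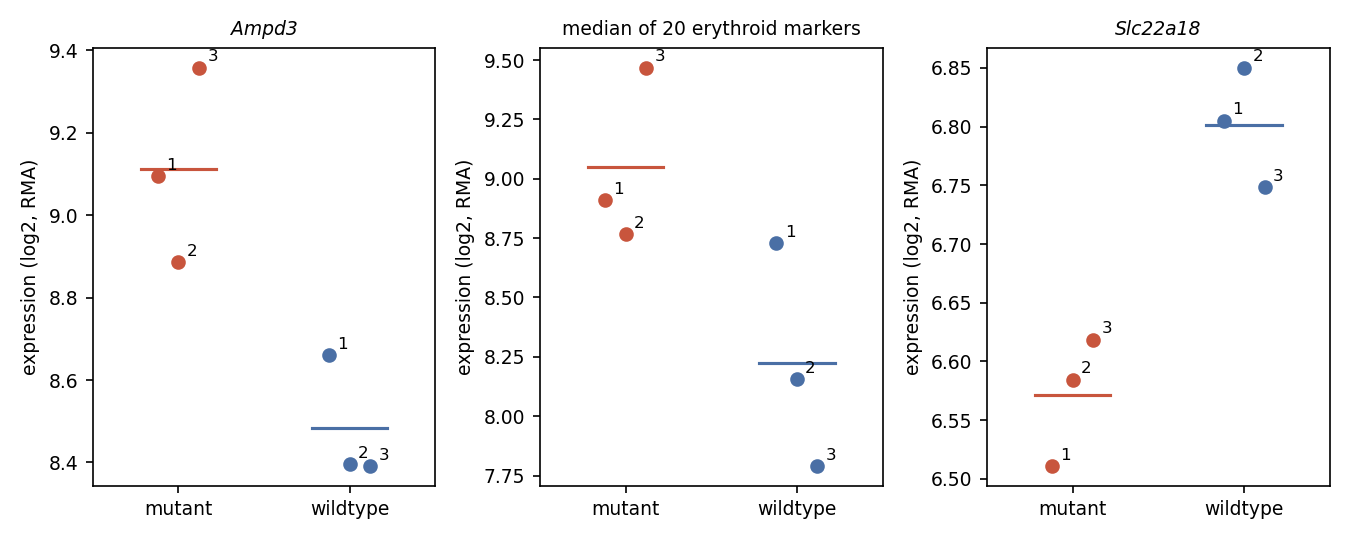
Log2 expression on each array of *Ampd3* (left), the median of 20 erythroid markers (middle) and *Slc22a18* (right), mutant left of wildtype in each panel, with replicate numbers beside the points and bars at the mean of 3 arrays; the vertical scales differ and do not start at 0. For *Ampd3* and the erythroid markers the replicates have the same order within each genotype, though wildtype replicates 2 and 3 of *Ampd3* are almost level. For *Slc22a18* all mutant arrays are below all wildtype arrays.

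*Slc22a18*, which encodes a transporter of organic cations and is expressed from the maternal copy in the *Kcnq1ot1* domain, was the single imprinted gene lower at an unadjusted p under 0.05 by limma. With an intensity trend in limma it no longer passed (unadjusted p = 0.0559), and *Cdkn1c* passed in its place (unadjusted p = 0.0434). It read 6.51, 6.58 and 6.62 in the mutant and 6.81, 6.85 and 6.75 in the wildtype, without overlap (difference -0.23, 95% interval -0.44 to -0.02, unadjusted p = 0.0362, limma adjusted p = 0.606). Its mutant mean of 6.57 was below the filter and its wildtype mean of 6.80 just above it, in the range where array background takes a larger share of the signal.

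Because the deleted gene encodes a repressor of the HIC family, the stretch before the start of *Ampd3* and *Slc22a18*, the genes past the unadjusted threshold, is shown with the core word of that family in capitals, TGCCC or, read from the opposite strand, GGGCA. Each is 250 bases upstream of a RefSeq start (GRCm38.p6, plus strand). *Ampd3* has 3 such starts in the table used, at the ends of chr7:110768372-110768621, chr7:110772354-110772603 and chr7:110773386-110773635, and *Slc22a18* has 1, at the end of chr7:143473539-143473788.
Ampd3 start 1: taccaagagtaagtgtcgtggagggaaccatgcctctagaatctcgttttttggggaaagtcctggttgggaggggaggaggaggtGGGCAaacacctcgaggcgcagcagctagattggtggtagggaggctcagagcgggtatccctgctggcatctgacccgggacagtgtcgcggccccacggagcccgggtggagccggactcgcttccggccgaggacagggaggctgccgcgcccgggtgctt
Ampd3 start 2: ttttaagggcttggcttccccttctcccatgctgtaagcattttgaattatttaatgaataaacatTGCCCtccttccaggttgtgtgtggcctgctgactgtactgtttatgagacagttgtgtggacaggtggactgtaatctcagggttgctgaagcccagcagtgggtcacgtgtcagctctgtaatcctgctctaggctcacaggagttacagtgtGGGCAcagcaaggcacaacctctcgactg
Ampd3 start 3: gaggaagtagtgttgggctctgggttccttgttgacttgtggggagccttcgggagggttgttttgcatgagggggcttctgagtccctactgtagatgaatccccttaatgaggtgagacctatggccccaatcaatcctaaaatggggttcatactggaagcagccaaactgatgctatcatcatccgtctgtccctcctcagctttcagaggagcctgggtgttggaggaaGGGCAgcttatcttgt
Slc22a18 start: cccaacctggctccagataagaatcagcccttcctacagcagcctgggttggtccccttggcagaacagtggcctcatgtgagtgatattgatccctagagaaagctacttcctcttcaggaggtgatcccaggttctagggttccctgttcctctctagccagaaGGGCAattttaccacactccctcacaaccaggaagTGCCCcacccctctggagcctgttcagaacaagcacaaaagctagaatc
The word stood 1, 2 and 1 times in the *Ampd3* windows and 2 times in that of *Slc22a18*. It was present in 32 of 50 windows of the listed imprinted genes (64.0%, over 30 genes with a window), against 47.7% of all 32851 windows. A match is not a binding site, and the gene that was higher and the gene that was lower both held the word.

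In the rest of the *Kcnq1ot1* domain, *Cd81*, a tetraspanin of the cell surface and the third brightest of the imprinted genes, read 13.10, 13.16 and 13.11 in the mutant and 13.26, 13.24 and 13.12 in the wildtype (difference -0.08, limma adjusted p = 0.753). *Osbpl5*, a lipid transfer protein, had a difference of -0.17, *Tssc4*, a factor of spliceosome assembly, one of -0.07, and *Nap1l4*, a histone chaperone, one of -0.03. *Ascl2*, below the filter, had one of 0.07. Of the 8 genes of the domain found, 6 had a lower mean in the mutant, among them *Tssc4* and *Nap1l4*, whose sign turned with cyclic loess, and that of *Tssc4* also with quantile normalisation.
In the *Snrpn* domain, which is lost or mutated in human Prader-Willi and Angelman syndromes, *Ndn*, a MAGE family protein, had a difference of 0.11, and its relative *Magel2* was below the filter at means of 6.10 in the mutant and 5.91 in the wildtype. *Mkrn3*, a zinc finger protein linked to the timing of puberty, was at means of 6.62 in the mutant and 6.65 in the wildtype. *Ube3a*, a ubiquitin ligase with imprinted expression in neurons, was at 9.26, 9.15 and 9.60 in the mutant and 9.43, 9.78 and 9.58 in the wildtype, and the genotypes overlapped (difference -0.26, 95% interval -0.59 to 0.07, limma adjusted p = 0.608). *Usp29*, a ubiquitin protease beside *Peg3*, was below the filter.

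Among the remaining genes, *Gnas*, the stimulatory G protein subunit, was at 8.56, 8.67 and 8.74 in the mutant and 8.64, 8.66 and 8.68 in the wildtype, and its difference of -0.0029 was the smallest of the genes tested. *Sgce*, a sarcoglycan, differed by -0.02, *Impact*, a regulator of translation, by 0.05, and *Slc38a4*, an amino acid transporter, by -0.18. *Rtl1*, a gene derived from a retrotransposon that acts in placental vessels, was below the filter in both genotypes but without overlap, at 6.52, 6.43 and 6.38 in the mutant and 6.36, 6.17 and 6.27 in the wildtype.
The genes were also grouped by the copy they were listed as mainly expressing. The arrays do not show which copy was used in the heart. The 14 found and listed as paternal had a median difference of -0.02 (-0.05 for the 10 tested). The 12 listed as maternal had one of -0.08 (-0.08 for the 11 tested). At an unadjusted p under 0.05, 0 of the 10 paternal genes were called, and 1 of the 11 maternal genes was higher and 1 lower, where 1.68% of all clusters were higher and 5.9% lower.

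Mutant replicate 3 was the highest mutant array for 16 of the 23 imprinted genes tested, against 46.3% of all clusters tested. It also had the highest median of the 13 liver and yolk sac endoderm markers found, at 7.75, against 6.98 and 6.34 in mutant replicates 1 and 2 and 6.92, 6.20 and 6.15 in the wildtype arrays. The summed linear values of these markers were 1257 to 3582 in the mutant and 1099 to 2166 in the wildtype. Endoderm was not alone in this: mutant replicate 3 was also the highest mutant array for the medians of erythroid, mesenchyme, pharyngeal, neural and proliferation genes. It was not the highest for heart muscle, endothelial or epicardial markers. Mutant replicate 2 was the lowest mutant array for 13 of the 23, against 53.3% of all clusters. In the wildtype, replicate 1 was the highest array for 9 of the 23, against 59.5% of all clusters, and replicate 3 the lowest for 12 of the 23, against 73.9%. The part of endoderm or of any other cell type in the spread of the mutant arrays was not tested.

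Of the 28 imprinted genes, 17 lie on chromosome 7 and 11 elsewhere. Chromosome 7 also carries *Mesp1*, so a chromosome with the Cre allele is present in every mutant and in no wildtype, and an effect of that chromosome and an effect of genotype cannot be told apart. The median difference was -0.06 for the imprinted genes on chromosome 7 and -0.02 for those elsewhere, a gap of -0.05. Over the genes tested alone, the medians were -0.08 for 14 genes and -0.09 for 9 genes, a gap of 0.01 in the opposite direction. Over all clusters tested the medians were -0.08 on chromosome 7 (726 clusters) and -0.09 elsewhere (9240 clusters).
Taken per array as deviations from the wildtype mean, the median of the chromosome 7 genes minus that of the others was 0.13, 0.01 and -0.06 in the mutant and 0.08, 0.03 and -0.09 in the wildtype, so that the arrays of the genotypes interleaved. Both imprinted genes past the unadjusted threshold, *Ampd3* and *Slc22a18*, were on chromosome 7 (1 higher and 1 lower of 14), and 0 of 9 elsewhere were past it. Among all clusters tested on chromosome 7, 15 were higher (2.07%) and 41 lower (5.65%) at that threshold. On other chromosomes the shares were close to these, at 1.66% higher and 5.94% lower.

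The gene nearest to *H19* on its far side from *Igf2*, of those with a cluster of their own, was *Tnnt3*, and it was the single gene of the distal stretch past the adjusted threshold. *Tnnt3*, the troponin T of fast skeletal muscle, read 11.79, 11.80 and 11.54 in the mutant and 10.29, 10.20 and 10.10 in the wildtype, far apart (difference 1.51, 95% interval 1.26 to 1.77, limma adjusted p = 0.00241). The difference was as large with the erythroid median as a covariate (1.53), although the limma adjusted p was then 0.206. *Tnni2*, the matching troponin I, read 9.91, 10.18 and 9.35 in the mutant and 9.34, 9.09 and 8.63 in the wildtype, with the lowest mutant array just above the highest wildtype array (difference 0.79, unadjusted p = 0.00934, limma adjusted p = 0.606). *Lsp1*, between them, differed by 0.15, and *H19* and *Igf2*, just beyond, by -0.08 and -0.06.
On the other side of *Igf2*, *Th*, which encodes the enzyme that starts catecholamine synthesis, was at 7.64, 7.61 and 7.57 in the mutant and 8.02, 7.97 and 7.72 in the wildtype (difference -0.30, unadjusted p = 0.0246, limma adjusted p = 0.606). *Mob2* and *Dusp8*, which lie on the troponin side of *H19* at the start of the stretch, differed by -0.22 and 0.002. Of 8 neighbours tested, 1 was higher at the adjusted threshold, against 0.0671% of all clusters, and 2 were higher and 1 lower at the unadjusted one, against 1.68% and 5.9%. The neighbours were chosen with earlier results of these data known, *Tnnt3* and *Tnni2* among them, so these counts are no measure of the region. *Ifitm10*, which lies in the stretch but was not on the list, differed by -0.04.

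**Figure D4:**
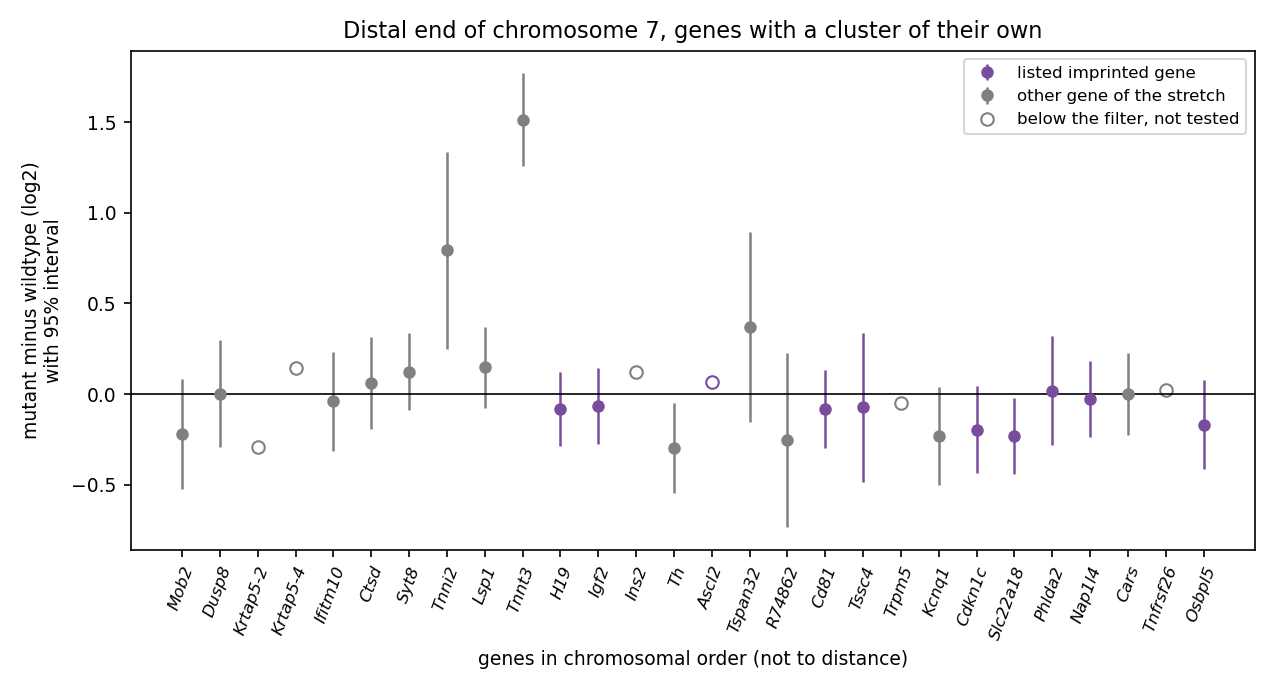
Mutant minus wildtype log2 difference of the genes at the distal end of chromosome 7 that had a cluster of their own, in the gene order of GRCm38.p6 and not to distance, with 95% intervals from limma (n = 3 arrays per genotype) for those tested and open circles for those below the filter. *Tnnt3* stands at 1.51 beside *H19* and *Igf2*, which lie at -0.08 and -0.06 among the other listed imprinted genes (purple).

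A further list of 52 imprinted genes had 35 with a cluster of their own and 27 tested, and 0 passed the adjusted threshold by limma. At an unadjusted p under 0.05, 0 were higher and 3 were lower, against 1.68% and 5.9% of all clusters. They were the matrix proteoglycan *Dcn* (difference -0.94, unadjusted p = 0.00422), the serotonin receptor *Htr2a* (difference -0.43, unadjusted p = 0.0122), which passed the filter through the wildtype alone, and *Th*. *Gab1*, an adaptor of growth factor receptors, had a difference of -0.24. The median of the 27 was -0.16, against -0.08 for the 23 above.
Most markers of mesenchyme, epicardium and endothelium also had negative differences, as had 71.8% of all clusters tested. At an unadjusted p under 0.05 by limma, 5.9% of all clusters were lower. The 20 erythroid markers and the 9 liver and yolk sac endoderm markers tested all had positive differences. Of these, *Cldn13*, *Afp*, *Alb* and *Ambp* passed the filter through the mutant alone, which favours a positive sign. Of the 13 endoderm markers found, 11 had a positive difference and 2 a negative one. Of 7 mesenchyme markers tested, 6 had a mean below that of the wildtype (median difference -0.22, 1 of 7 lower at an unadjusted p under 0.05), and the summed linear values of the 8 found were 1712 to 2743 in the mutant and 2328 to 2903 in the wildtype. Of 7 epicardial and septum transversum markers tested, 6 had a lower mean (median -0.31, 1 of 7 lower unadjusted), with sums over the 8 found of 3299 to 4509 in the mutant and 4150 to 5426 in the wildtype. Of 15 endothelial markers, 13 had a lower mean (median -0.20, 5 of 15 lower unadjusted), with sums of 25927 to 29715 in the mutant and 29089 to 30974 in the wildtype. Their part in the differences of *Dcn* and of the list was not tested.
The genes that set or keep imprints, among them DNA methyltransferases and TET enzymes, had 21 members tested. Of these 0 were higher and 1 was lower at an unadjusted p under 0.05, against 1.68% and 5.9% of all clusters, and 0 were called after adjustment by limma. The single one was *Dnmt3a*, a methyltransferase that lays down new methylation, at a difference of -0.27 (unadjusted p = 0.0487). *Tet3* (difference -0.26), *Smchd1* (-0.24) and *Ehmt1* (-0.22) followed, and the median was -0.15 for the 21 tested and -0.14 for the 23 found.

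In the IGF pathway, through which *Igf2*, *Igf2r* and *Grb10* act, 1 of 11 genes tested was higher at an unadjusted p under 0.05 and 0 were lower, against 1.68% and 5.9% of all clusters. It was *Igfbp3*, which binds IGFs outside the cell, at 9.58, 9.36 and 9.36 in the mutant and 9.11, 8.94 and 8.89 in the wildtype. All mutant arrays were above all wildtype arrays (difference 0.45, unadjusted p = 0.00317, limma adjusted p = 0.460). The ligand *Igf1* was at 7.94, 7.90 and 8.03 in the mutant and 8.17, 8.21 and 8.08 in the wildtype (difference -0.20, limma adjusted p = 0.606). The binding proteins *Igfbp5* and *Igfbp4* differed by -0.21 and -0.20, and the median was -0.20 for the 11 tested and -0.15 for the 13 found.

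**Figure D5:**
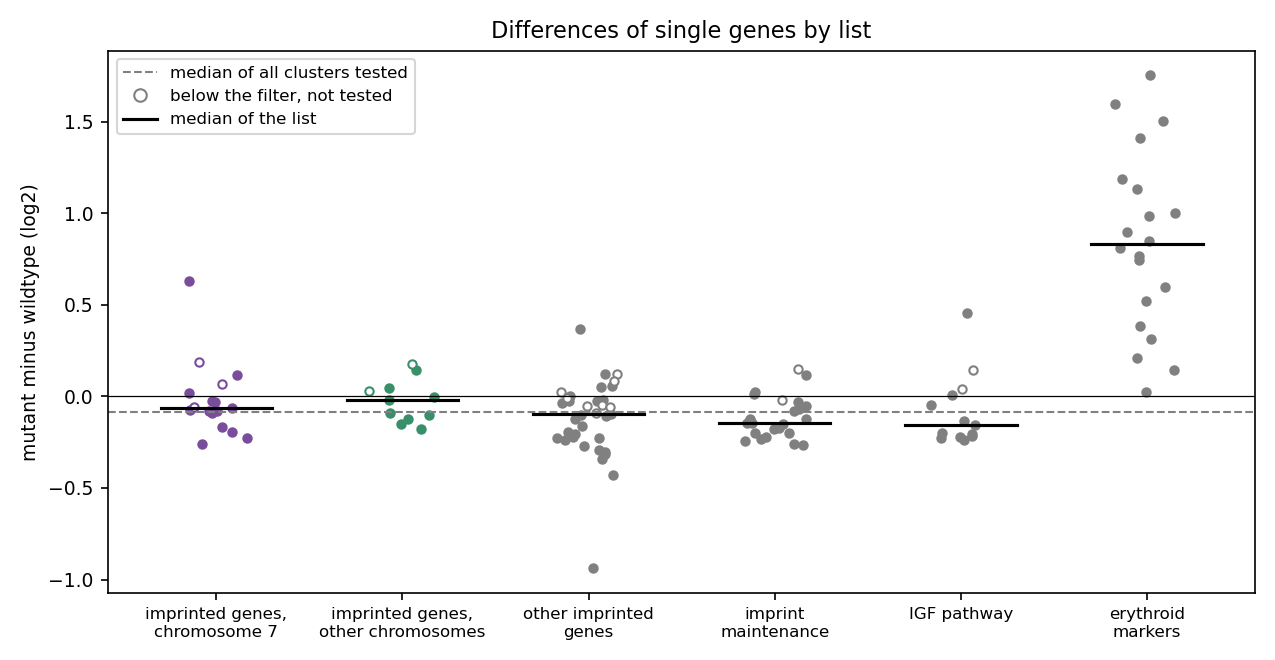
Mutant minus wildtype log2 difference of single genes (points; open where below the filter), by list, with the median of each list's genes found as a bar and the median of all clusters tested, -0.09, as a dashed line. The imprinted genes of chromosome 7 and of other chromosomes lie around the dashed line with *Ampd3* apart at 0.63, while all 20 erythroid markers lie above 0.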

How the data were processed

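The authors summarised and normalised the probes of each array by RMA, using core gene predictions in the Affymetrix Expression Console, and deposited log2 values, which were used as deposited. The sources used here do not name the genome build of the probes. All 6 columns were used, and no arrays were identical. Probes were named through the platform annotation. Chromosomes and gene order came from RefSeq GRCm38.p6, to which 14941 of 14996 single-gene clusters were matched by Entrez identifier. The imprinted genes and lists were chosen with earlier results of these data known. The paper describes the pools as independent.

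Genotypes were compared by lmFit and eBayes of limma 3.58.1 (R 4.3.3), which was tested on simulated data. Named in full were genes at an unadjusted p under 0.05, those of the *H19* and *Igf2* domain, the 3 brightest, genes without overlap and a difference over 0.3, *Hic2*, *Mesp1* and up to 4 genes of lowest p per other list; *Cdkn1c*, *Igf2r*, *Airn*, *Dlk1*, *Ube3a*, *Gnas* and *Rtl1* were added after their values were seen. *Mesp1* was below the filter, at means of 5.28 in the mutant and 5.22 in the wildtype. Same-numbered arrays of the genotypes deviated together (correlations 0.311, 0.142 and 0.458), though mutant 1 with wildtype 2 (0.303) and mutant 2 with wildtype 1 (0.231) did so too, and the replicate number was tried as a block. The number of arrays limits the precision. Python 3.11.15 with matplotlib 3.10.9 was used for the figures.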

Additional observations from a re-analysis of the deposited data

How the results depend on the processing

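The call of none of the 23 imprinted genes tested at the adjusted threshold changed under any alternative, and 390 of 412 values of single genes kept their direction. With the methods' t-test on log2 or linear values, 0 clusters were higher after adjustment and 2 imprinted genes were lower unadjusted (*H19* joining *Slc22a18*), and *Tnnt3* no longer passed (difference 1.51 and 1.52). With the erythroid median as a covariate, 1 cluster was higher after adjustment, 98 higher and 2124 lower unadjusted, and of the imprinted genes 0 were higher and 2 lower (*Cdkn1c* and *Phlda2*, not *Slc22a18*), with a median over the genes found of -0.14 (-0.06 otherwise). The median of all clusters tested was then -0.21 (-0.09 otherwise). Clusters lower after adjustment numbered 1 with median centring, 3 with quantile normalisation and 1 with cyclic loess, *Hic2* among them each time. With an intensity trend, *Cdkn1c* in place of *Slc22a18* was lower unadjusted. Unadjusted, 306 were higher without a filter, 344 with quantile normalisation, 389 with cyclic loess and 281 with the replicate block, and 1165 were lower with median centring. The joint clusters raised the imprinted genes higher unadjusted to 2. The replicate block changed no call of an imprinted gene.

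Leaving out each array in turn gave 4 to 8 clusters higher and 0 to 4 lower after adjustment and 116 to 342 higher and 179 to 1913 lower unadjusted. For the imprinted genes it gave 1 to 2 higher and 0 to 5 lower unadjusted, a median of -0.061 to -0.023 and a chromosome 7 gap of -0.056 to -0.0036.

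The signs that turned were those of *Tssc4* (0.0064 quantile, 0.024 loess), *Sgce* (0.0099, 0.033), *Gnas* (0.082, 0.090) and *Nap1l4* (0.0044 loess), and, with the covariate, *Phlda2* (-0.31), *Ndn* (-0.11), *Mkrn3* (0.064) and *Impact* (-0.035). With an array left out, they were those of *Dlk1* (-0.39 to 0.062), *Gnas* (-0.046 to 0.045), *Impact* (-0.022 to 0.098), *Mkrn3* (-0.075 to 0.036), *Peg3* (-0.20 to 0.019), *Phlda2* (-0.079 to 0.14), *Sgce* (-0.047 to 0.011), *Tssc4* (-0.26 to 0.048) and the *Snrpn* and *Snurf* cluster (-0.046 to 0.13). The causes were not tested. Each imprinted gene found has 1 cluster, so averaging clusters changed nothing.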
